A study of Mus musculus with 10 samples.

Results

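The protein genes of the mitochondrial ribosome were followed in blood RNA of mice treated with metformin and of mice given PBS. Members were all genes of the deposited expression table whose symbol is Mrpl or Mrps followed by a number, which gave 75 of 8904 genes. Mrpl symbols, named after the large subunit, accounted for 46 of them, and Mrps symbols, named after the small subunit, for 29. All were measured in 10 libraries. No member passed the test between metformin and control mice (4.21% of all tested genes passed as higher and 3.11% as lower), while 43 of the 75 members were higher in each of 2 control libraries, control 1 and control 5, than in each of the other 8 libraries, against 20.0% of all genes.

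Mitochondria carry a ribosome of their own, which translates the few messenger RNAs encoded by mitochondrial DNA, all of them for core subunits of the respiratory chain and the ATP synthase. Its RNA comes from mitochondrial DNA, but its proteins are encoded in the nucleus, made in the cytosol and imported. Some descend from bacterial ribosomal proteins and others are found only in mitochondria. Heart muscle is rich in mitochondria, whereas red blood cells shed theirs as they mature. Metformin is known as an inhibitor of respiratory complex I, which is why the genes of mitochondrial translation are of interest under this drug.

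The metformin group held 5 C57BL/6 mice treated with metformin for 30 days, and the control group held 5 C57BL/6 mice given PBS for 30 days. The labels call all mice adult, name blood as the tissue and give no other genotype or agent. The paper's discussion states that the drug was tested in middle-aged females only. The methods give a general dose of 5 mg/kg every 2 days for treated mice, by tail vein or by mouth, and which route these animals had is not stated. Each library was taken as 1 mouse, since no label says how the samples relate to animals, so p-values measure only the spread between these samples. Values are log2 FPKM, that is, the log2 of fragments scaled to transcript length and library size, as deposited. They compare genes per length, and the read depth behind them is unknown. Their sorted values nearly coincide between libraries, as after quantile normalization, so a level is relative to the other genes of its library.

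Control 1 and control 5 stood apart from the other libraries before any comparison was made. All 24 genes of a heart muscle marker list were higher in both of them than in any of the other 8 libraries, against 20.0% of all genes. The mean of that list was 1.11 to 1.38 in the metformin libraries. It was 7.22 and 7.16 in control 1 and 5, and 0.18 to 1.53 in control 2 to 4. The defining heart markers go against the blood label in these 2 libraries. Erythroid markers (21 of 30 listed genes in the table) had a mean of 4.91 to 5.28 in the metformin libraries, 0.63 and 1.85 in control 1 and control 5, and 4.09 to 4.84 in control 2 to 4. Fast skeletal muscle markers averaged 4.22 to 4.83 in the metformin libraries, against 1.71 and 1.58 in control 1 and control 5 and 0.37 to 0.51 in control 2 to 4. These markers go against the blood label in the metformin libraries as well. Leaving out control 1 and control 5 thus does not give a comparison of blood alone. In bulk blood RNA, fewer cells of a type and less RNA per cell cannot be told apart. The treatment comparison is therefore given with and without control 1 and control 5, and the 2 libraries were set apart by measured values, so their levels are described without a test.

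**Figure D1:**
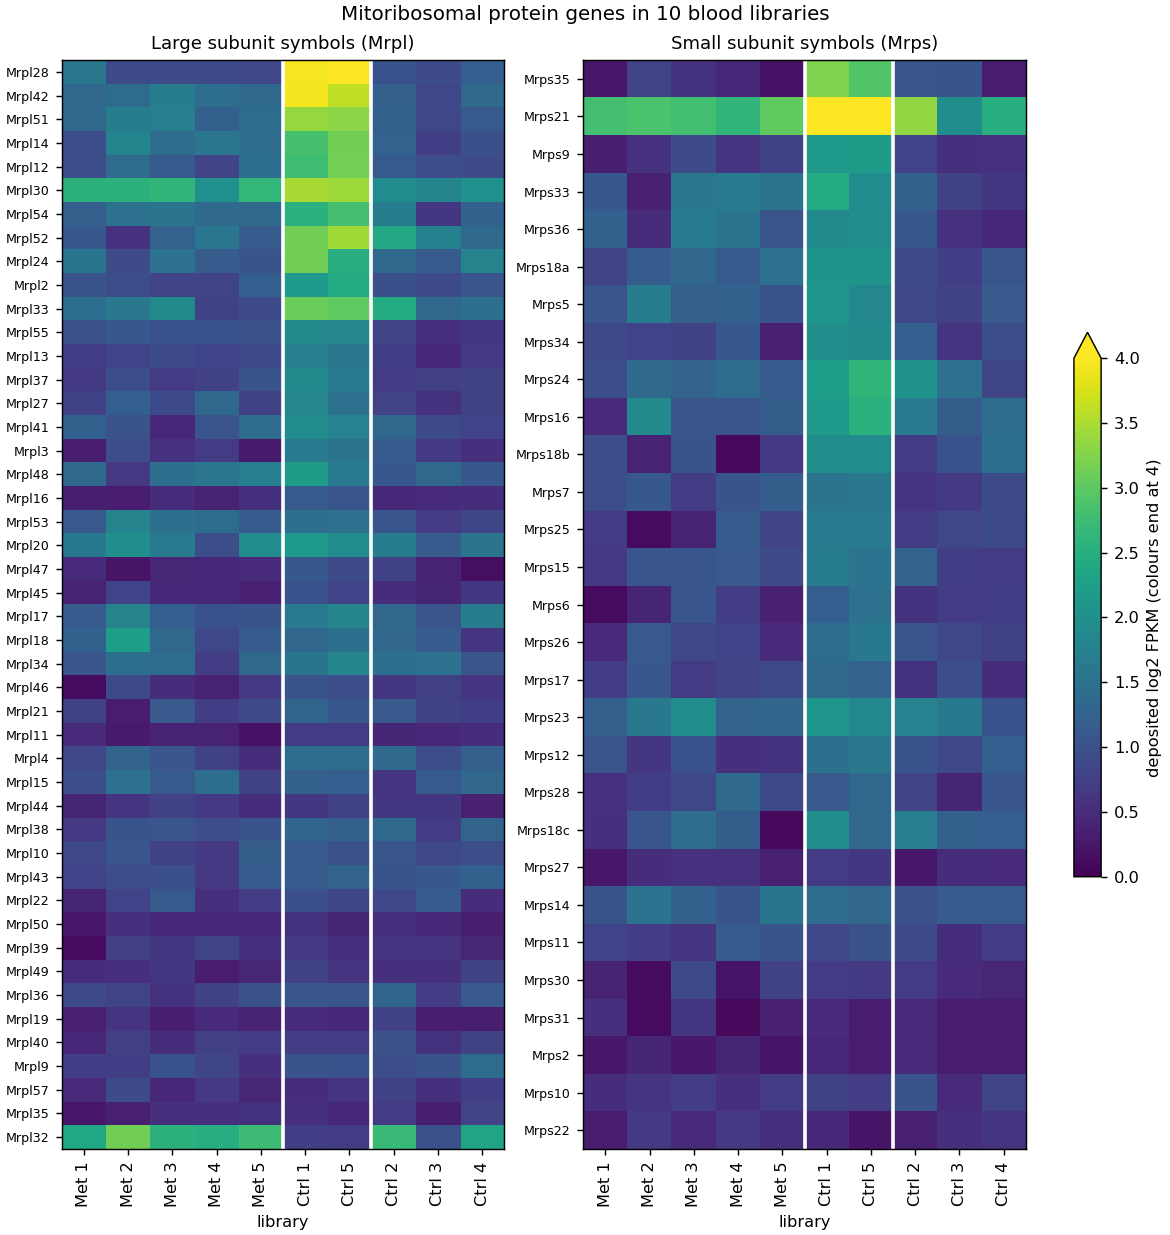
Deposited log2 FPKM of all 75 mitoribosomal protein genes (rows) in the 10 libraries (columns: 5 metformin, then control 1 and 5, then control 2 to 4, with white lines between the sets). Colours run from 0 to 4 and higher values share the last colour. Within each panel genes are ordered by the difference of control 1 and 5 minus control 2 to 4. The columns of control 1 and control 5 are lighter over the upper part of both panels, and Mrpl32, the bottom row on the left, is dark in them.

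Nuclear genes for mitochondrial proteins often carry sites for NRF1, for ETS factors such as GABPA and for YY1 near their start, and these letters were looked for in the members. Of the 75 members, 66 were found in the RefSeq promoter table (GRCm38.p6), which holds 250 bases before to 50 bases after each start. CCGGAAG, an ETS core, was present on either strand in 25 of the 66 members (37.9%), against 9.93% of 27025 genes and 20.7% of the 7109 promoter genes that are in the expression table. GCATGCGC, an NRF1 core, was present in 8 members (12.1%), against 3.05% and 6.11%. AAGATGGCG, a YY1 core, was also present in 8 members (12.1%), against 1.64% and 3.81%. The ETS and YY1 cores can overlap in their shared letters AAG. At least 1 of the cores was present in 35 members and none in 31. The stretches of 150 bases just before the RefSeq start are shown for 4 members that the results turn on: Mrpl28 and Mrpl51, among the highest members in control 1 and control 5, Mrpl52, with the lowest adjusted p, and Mrpl32, the member with the opposite pattern. Capitals mark the searched cores, and all sequences run 5′ to 3′ along the gene's strand.
Mrpl28 (chr17:26123353-26123502, plus strand): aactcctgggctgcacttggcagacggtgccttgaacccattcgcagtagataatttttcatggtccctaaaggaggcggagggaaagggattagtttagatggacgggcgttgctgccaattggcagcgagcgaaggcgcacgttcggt
Mrpl51 (chr6:125192050-125192199, plus strand): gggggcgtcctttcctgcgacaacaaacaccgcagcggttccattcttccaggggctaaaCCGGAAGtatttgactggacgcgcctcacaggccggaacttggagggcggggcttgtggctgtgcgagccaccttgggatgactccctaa
Mrpl52 (chr14:54426759-54426908, plus strand): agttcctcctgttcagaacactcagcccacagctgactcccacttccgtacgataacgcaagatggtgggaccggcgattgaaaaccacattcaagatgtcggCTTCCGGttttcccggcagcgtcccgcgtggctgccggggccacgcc
Mrpl32 (chr13:14613038-14613187, minus strand): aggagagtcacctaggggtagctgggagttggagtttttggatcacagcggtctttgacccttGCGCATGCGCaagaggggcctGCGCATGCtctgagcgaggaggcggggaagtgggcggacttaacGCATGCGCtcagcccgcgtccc

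The 4 stretches differ in what the search found. Mrpl28 held none of the cores, Mrpl51 held the ETS core 90 bases before the start, and Mrpl52 held it on the other strand 47 bases before the start. Mrpl32 held the NRF1 core in 3 separate stretches that begin 87, 66 and 22 bases before the start, the first of them with overlapping matches on both strands. Among the 27025 genes, 4 held 3 or more such stretches, and Mrpl32 was the 1 member among them. Some annotated transcripts of Mrpl32 and Mrpl51 begin inside or before the stretch shown. A match is a match of letters and says nothing of whether a factor is bound.

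Levels of the members were low. The mean over all 10 libraries was 0.35 to 3.14 log2 FPKM, with a median of 1.03, and 64.4% of all genes lay below that median. A mean below 1 was found for 35 members and a mean of at least 2 for 3. The highest member was Mrps21, the counterpart of bacterial S21 (mean 3.14), followed by Mrpl30, the counterpart of bacterial L30 (2.51), Mrpl32, the counterpart of bacterial L32 (2.08), Mrpl42, a mitochondria-specific protein of the large subunit (1.83), and Mrpl33, the counterpart of bacterial L33 (1.80). The lowest were Mrps2, the counterpart of bacterial S2 (0.35), Mrps31, a mitochondria-specific protein of the small subunit (0.37), Mrpl50, a mitochondria-specific protein of the large subunit (0.45), Mrpl11, which forms the base of the factor-binding stalk (0.45), and Mrpl19, the counterpart of bacterial L19 (0.46). Control 1 and control 5 weigh in this order. Over the other 8 libraries, an order taken after seeing the data, Mrps21 was again the highest (2.75), with Mrpl32 (2.42) above Mrpl30 (2.28), while Mrpl33 (1.49) and Mrpl42 (1.34) held ranks 5 and 8, and Mrps2 was again the lowest (0.34).

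The order of the members was broadly kept between sets of libraries. Over the 75 members, Spearman's rho was 0.80 between the mean levels in metformin and in control 2 to 4, 0.71 between metformin and control 1 and 5, and 0.67 between control 1 and 5 and control 2 to 4. It was 0.98 between control 1 and control 5. These are descriptions across genes of normalized values, and genes are not independent replicates.

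In control 1 and control 5 the family as a whole was higher. The median over the 75 members was 1.48 in control 1 and 1.51 in control 5. It was 0.81, 0.91, 0.98, 0.83 and 0.88 in metformin 1 to 5, and 1.01, 0.76 and 0.83 in control 2 to 4. The 2 libraries thus lay above all others, while the metformin libraries lay within the range of control 2 to 4. Of the 75 members, 43 were higher in both control 1 and control 5 than in any other library (24 Mrpl and 19 Mrps), against 20.0% of all genes, and 1 was lower, against 12.2% of all genes. The mean of control 1 and 5 exceeded that of control 2 to 4 for 67 members and was below it for 8. The median difference over the members was 0.57, against −0.04 over all genes. Because control 1 and control 5 were recognised by their heart transcripts, these values describe the 2 libraries and compare no treatment. Heart markers and mitoribosomal protein genes were both high in these 2 libraries, and the part of the heart markers in the level of the members was not tested.

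Each structural class held members with this pattern. The counts above the other 8 libraries given below stand against 20.0% of all genes. Among 28 proteins of the large subunit with a bacterial counterpart the median difference between control 1 and 5 and control 2 to 4 was 0.47, and 16 were above the other 8 libraries. Among 20 mitochondria-specific proteins of the large subunit, which include the products of Mrps18a and Mrps30 despite their symbols, the median difference was 0.36 and 9 were above the other 8. Of the small subunit, 16 proteins with a bacterial counterpart had a median difference of 0.64, with 10 above the other 8, and 10 mitochondria-specific proteins had a median difference of 0.72, with 7 above the other 8. Mrps36, whose product has since been assigned to the 2-oxoglutarate dehydrogenase complex, was placed in no class and differed by 1.21. It was named after its values were seen. The ranges of the classes overlapped widely, from −1.30 to 2.94 for the first and from −0.16 to 2.26 for the last.

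**Figure D2:**
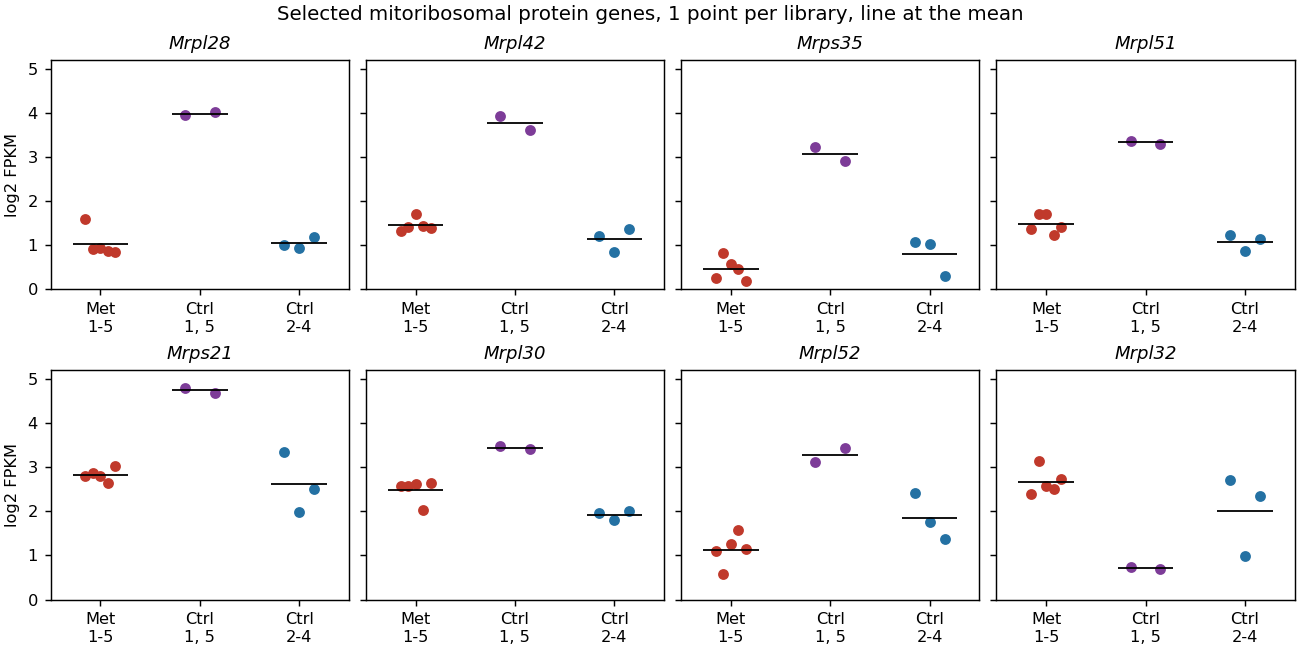
Deposited log2 FPKM of 8 mitoribosomal protein genes, 1 point per library and a line at the mean of each set (metformin 1 to 5, control 1 and 5, control 2 to 4). In 7 panels the points of control 1 and 5 lie above all others, as for Mrpl28 at 3.95 and 4.02. In the panel of Mrpl32 they lie below all others, at 0.74 and 0.70.

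Mrpl28 (chromosome 17, 26123500 to 26126613 on GRCm38), the counterpart of bacterial L28, showed the largest difference between the 2 control sets, 2.94. Its values were 1.60, 0.91, 0.93, 0.88 and 0.85 in metformin 1 to 5, 3.95 and 4.02 in control 1 and control 5, and 1.01, 0.94 and 1.20 in control 2 to 4. Metformin and control 2 to 4 overlapped, and control 1 and control 5 were far above both. Mrpl42, which is specific to mitochondria, differed by 2.63. It stood at 1.33, 1.41, 1.70, 1.44 and 1.38 in the metformin libraries, at 3.93 and 3.62 in control 1 and 5, and at 1.21, 0.86 and 1.38 in control 2 to 4. Again only control 1 and control 5 were set apart.

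Mrps35, a mitochondria-specific protein of the small subunit, differed by 2.26 and was the clearest small subunit member. Its values were 0.26, 0.83, 0.59, 0.46 and 0.20 in metformin 1 to 5, 3.22 and 2.91 in control 1 and control 5, and 1.07, 1.04 and 0.31 in control 2 to 4. It was low in 8 libraries and did not pass the filter on low values, which asks for 5 or more libraries with a log2 value of 1 or more. Mrpl51, another mitochondria-specific member of the large subunit, differed by 2.25, with 1.38, 1.70, 1.72, 1.23 and 1.41 in the metformin libraries, 3.36 and 3.30 in control 1 and control 5, and 1.24, 0.86 and 1.13 in control 2 to 4. Of these metformin values, 4 exceeded all 3 values of control 2 to 4. Mrps21, the most abundant member, differed by 2.13. It was at 2.80, 2.87, 2.80, 2.63 and 3.03 in the metformin libraries, at 4.80 and 4.68 in control 1 and 5, and at 3.34, 1.98 and 2.50 in control 2 to 4, so that the metformin values lay inside the range of control 2 to 4.

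At least a 1 log2 difference between control 1 and 5 and control 2 to 4 was reached by 22 members, and at least 2 by 6. The sixth was Mrpl14, the counterpart of bacterial L14, with 2.0, and Mrpl12, whose product forms the stalk that recruits translation factors, came next with 1.95. Members of the decoding and exit regions were among those above the other 8 libraries as well, such as Mrps12, at the decoding centre, with 1.48 and 1.60 in control 1 and control 5 against 0.86 to 1.20 in control 2 to 4. Mrpl24, near the exit of the peptide tunnel, stood at 3.14 and 2.51 in control 1 and 5, and at 1.35, 1.14 and 1.78 in control 2 to 4. Mrpl45, which anchors the ribosome to the inner membrane, was lower throughout, at 1.01 and 0.80 in control 1 and control 5, and 0.50, 0.41 and 0.65 in control 2 to 4. Its metformin values reached 0.801 in metformin 2, barely below the 0.805 of control 5. Mrps9, a small subunit protein with a bacterial counterpart, was at 0.34, 0.58, 0.93, 0.60 and 0.79 in metformin 1 to 5, at 2.16 and 2.20 in control 1 and 5, and at 0.81, 0.56 and 0.57 in control 2 to 4, a difference of 1.53 between the control sets. Like Mrps35 it was low in 8 libraries and high in 2. Of the 43 members above the other 8 libraries, 26 passed the filter on low values and 17 did not. Mrpl12, Mrpl14, Mrps9, Mrps12 and Mrpl45 were named after their values were seen, for their roles or ranks.

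Mrpl32 was the exception. Its product is the counterpart of bacterial L32, a protein of the large subunit that is matured by the m-AAA protease of the inner membrane before it joins the ribosome. The gene lies on chromosome 13, 14608184 to 14613165, on the minus strand. It stood at 2.38, 3.13, 2.56, 2.50 and 2.74 in metformin 1 to 5, at 0.74 and 0.70 in control 1 and 5, and at 2.72, 0.99 and 2.34 in control 2 to 4. Control 1 and control 5 were the lowest of all libraries, control 3 was close to them, and control 2 and control 4 lay within or just below the range of the metformin libraries. The mean of control 1 and 5 was 1.30 below that of control 2 to 4, and no other member differed by more than 0.16 in this direction. Erythroid markers were also lowest in control 1 and control 5, and among control 2 to 4 they were lowest in control 3 (mean of the list 4.09, against 4.80 in control 2 and 4.84 in control 4). Platelet markers set control 3 apart as well, with a mean of 6.11 against 2.26 in control 2 and 1.06 in control 4. Their mean was 0.41 and 2.42 in control 1 and control 5. It was 0.60 in metformin 2 and 4.87 to 5.49 in the other metformin libraries. The part of either marker list in the level of Mrpl32 was not tested.

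The other members with a negative difference between the control sets differed little. Mrps22, a mitochondria-specific protein of the small subunit, differed by −0.16, with 0.45 and 0.22 in control 1 and control 5 and 0.35, 0.53 and 0.59 in control 2 to 4. Mrpl35 (−0.13), the counterpart of bacterial L35, Mrpl57 (−0.13), a small mitochondria-specific protein of the large subunit, and Mrpl9 (−0.12), the counterpart of bacterial L9, followed. For all 4 the values of control 1 and control 5 lay inside or just below the range of control 2 to 4. The members that were lowest in blood, Mrps2, Mrps31, Mrpl50 and Mrpl19, differed by −0.01 to 0.07 and were near the lower end of the scale in every library, where little difference can be seen. Mrpl11, with 0.70 in both control 1 and control 5 and 0.41, 0.44 and 0.52 in control 2 to 4, was low and still above the other 8 libraries.

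Metformin was then compared with control over the 5 and 5 libraries of the labels, with limma on the genes that passed the filter and Benjamini-Hochberg adjustment over all 3442 of them. Of the members 39 passed the filter (25 Mrpl and 14 Mrps) and 36 did not. At an adjusted p under 0.05, 0 members were higher in metformin and 0 were lower, against 4.21% of all tested genes higher and 3.11% lower. Unadjusted p-values were under 0.05 for 1 member with a positive and 7 with a negative difference, which is 2.56% and 17.9% of the tested members, against 16.2% and 12.6% of all tested genes. The difference was negative for 34 of the 39 tested members, with a median of −0.28, and for 49.4% of all tested genes, with a median of 0.01. With every gene kept, 67 of the 75 members were negative, with a median of −0.21, against 57.6% of all genes and a median of −0.06. No member had all metformin values above all control values, against 3.0% of all genes, or all below, against 3.26%.

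Mrpl52, a mitochondria-specific protein of the large subunit, came closest to the threshold. It averaged 1.13 ± 0.36 in metformin and 2.42 ± 0.87 in control mice (SD, n = 5 each), a difference of −1.29 (SE 0.39, limma adjusted p = 0.0690). Its values were 1.11, 0.58, 1.26, 1.57 and 1.15 in metformin 1 to 5, 3.13 and 3.43 in control 1 and control 5, and 2.41, 1.76 and 1.37 in control 2 to 4. Of the metformin values, 1 reached the control range. Mrps18b, one of the mitochondrial forms of the S18 family, averaged 0.63 ± 0.39 in metformin and 1.42 ± 0.57 in control mice, a difference of −0.79 (SE 0.28, adjusted p = 0.105), and of −0.42 without control 1 and control 5 (adjusted p = 0.274). Mrpl33 averaged 1.33 ± 0.48 in metformin and 2.28 ± 0.83 in control mice, a difference of −0.94 (SE 0.39, adjusted p = 0.149), and of −0.425 without control 1 and control 5 (adjusted p = 0.423).

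Mrpl32 stood out on the other side, with 2.66 ± 0.29 in metformin and 1.50 ± 0.96 in control mice, a difference of 1.17 (SE 0.41, adjusted p = 0.109). The remaining members with the largest differences were Mrpl28 (−1.19, adjusted p = 0.222), Mrpl24 (−0.75, adjusted p = 0.187) and Mrpl42 (−0.74, adjusted p = 0.369) on the negative side. On the positive side they were Mrpl53, a mitochondria-specific protein of the large subunit (0.28, adjusted p = 0.345), Mrpl18, the counterpart of bacterial L18 (0.19, adjusted p = 0.611), Mrps14, the counterpart of bacterial S14 (0.07, adjusted p = 0.757) and Mrpl15, the counterpart of bacterial L15 (0.06, adjusted p = 0.830), and the last 2 were negative when each library was centred on its median. Calls depended on single controls. Without control 2, Mrpl32 passed at 1.47 (adjusted p = 0.0401, with 5.08% of all genes called higher) and Mrps18b at −0.97 (adjusted p = 0.0480, with 2.56% called lower). Without control 3, Mrpl52 passed at −1.45 (adjusted p = 0.0412, with 4.30% called lower). Without control 4, Mrpl52 passed at −1.55 (adjusted p = 0.0298) and Mrps24, a small subunit protein, at −0.87 (adjusted p = 0.0493), with 3.17% called lower. Mrps24 was named after its values were seen, and it overlaps Urgcp on the same strand.

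**Figure D3:**
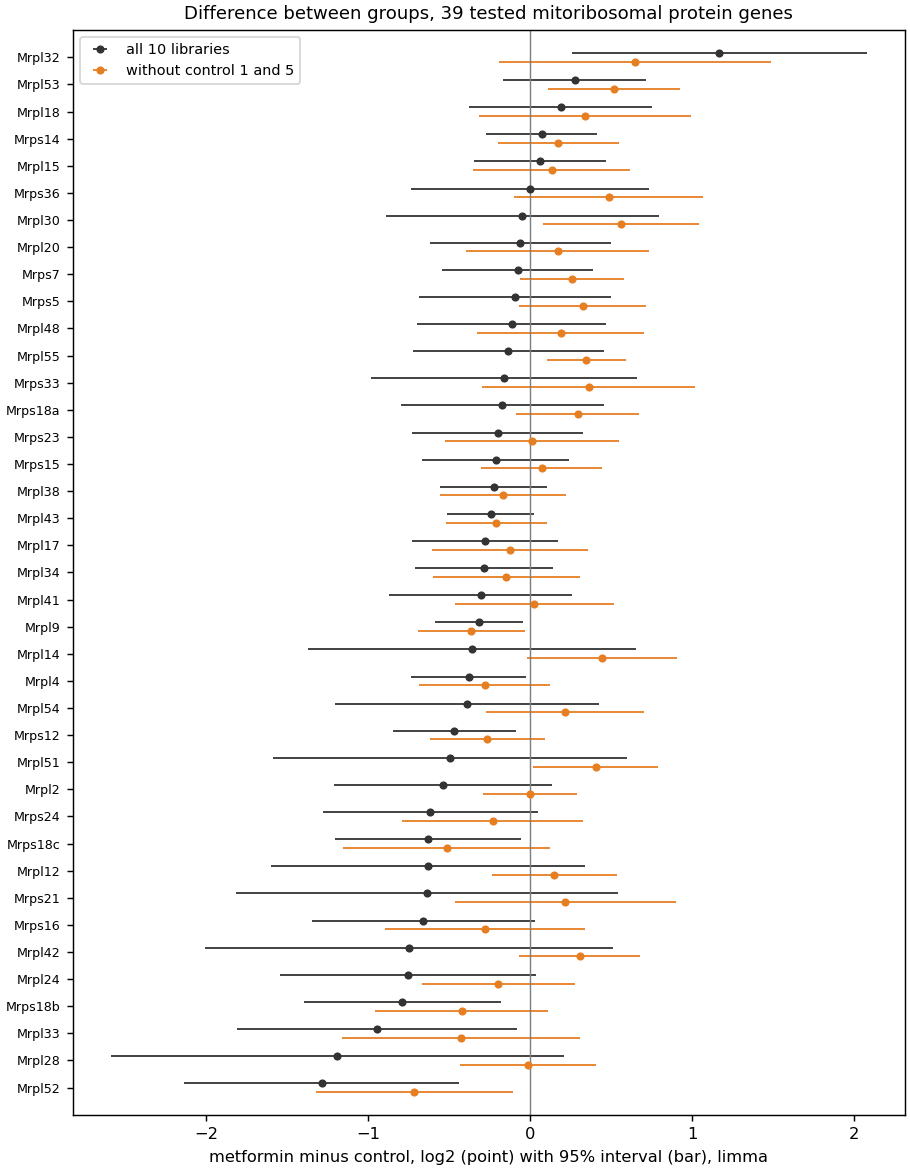
Difference of metformin minus control in log2 FPKM (points) with its 95% interval (bars, limma) for the 39 tested mitoribosomal protein genes, over all 10 libraries (dark) and without control 1 and 5 (orange). Most dark points lie left of 0, with Mrpl52 at −1.29 and Mrpl32 at 1.17 at the ends. Of the orange points, 23 lie right of 0.

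The negative direction rested on control 1 and control 5. Without these 2 libraries the difference was positive for 23 of the 39 tested members and negative for 16, with a median of 0.13, against 55.3% positive and a median of 0.07 over all tested genes. Again 0 members were higher and 0 were lower at an adjusted p under 0.05, against 5.81% of all tested genes higher and 9.06% lower. Unadjusted p-values were under 0.05 for 4 members with a positive and 2 with a negative difference, which is 10.3% and 5.13% of the tested members, against 12.6% and 16.1% of all tested genes. Over all 75 members, the mean of metformin was within 0.5 of that of control 2 to 4 for 70 members, and none differed by 1 or more. Mrpl28 differed by −0.01 (SE 0.19) in this comparison, and Mrpl42 by 0.31 (SE 0.17) and Mrps21 by 0.22 (SE 0.30) with the sign turned. Mrpl24 differed by −0.19 (adjusted p = 0.556), and by −0.47 without control 1 alone and −0.33 with library weights. Mrpl18 differed by 0.34, Mrps14 by 0.17 and Mrpl15 by 0.13, with adjusted p-values of 0.465, 0.512 and 0.692. Mrpl52 kept a difference of −0.71 (SE 0.27, adjusted p = 0.112) and Mrpl32 one of 0.65 (SE 0.38, adjusted p = 0.283). Some members, such as Mrpl28, met the filter only through control 1 and control 5, which this comparison leaves out.

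Of the members nearest to the threshold against control 2 to 4, Mrpl55, Mrpl53 and Mrpl30 were higher in metformin and Mrpl52 was lower. Mrpl55, a protein of the large subunit, was at 0.99, 1.09, 1.0, 1.01 and 0.99 in metformin 1 to 5 and at 0.81, 0.53 and 0.65 in control 2 to 4, a difference of 0.35 (SE 0.11, adjusted p = 0.0613). The metformin values hardly varied and lay above all 3 of these controls, but control 1 and control 5, at 1.88 and 1.85, were higher still. Mrpl55 met the filter only through control 1 and control 5, which this comparison leaves out. Mrpl53 stood at 1.12, 1.78, 1.48, 1.41 and 1.15 in metformin 1 to 5 and at 1.07, 0.71 and 0.83 in control 2 to 4, a difference of 0.52 (SE 0.18, adjusted p = 0.0867). The lowest metformin value exceeded the highest of these controls by little. Mrpl30 stood at 2.57, 2.57, 2.62, 2.02 and 2.64 in metformin 1 to 5 and at 1.95, 1.81 and 2.01 in control 2 to 4, a difference of 0.56 (SE 0.21, adjusted p = 0.112). With Mrpl13, whose difference of means was 0.21, they were the 4 members whose 5 metformin values all lay above control 2 to 4. That is 5.33% of the members, a smaller share than the 7.97% of all genes. No member had all 5 below, against 10.6% of all genes. Mrpl13 and Mrpl55 were named after their values were seen. Fast skeletal muscle markers were higher in metformin for 18 of 18 genes without control 1 and control 5, against 5.81% of all tested genes. Their part in these differences was not tested.

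Related gene groups were set beside the family. All 6 mitoribosomal proteins whose symbols are neither Mrpl nor Mrps were above the other 8 libraries in control 1 and control 5. The share of all genes was 20.0%. Their median difference from control 2 to 4 was 1.01, and 0 of the 4 tested passed between metformin and control. Complex I subunits, some of which are made by the mitochondrial ribosome and most of which are imported, went further in the same libraries. Of 37 nuclear subunits, 36 were above the other 8 libraries in control 1 and control 5, against 20.0% of all genes. The median difference from control 2 to 4 over the 37 subunits was 2.99, against 0.57 for the mitoribosomal proteins. The median complex I level was 2.05 to 2.48 in the metformin libraries, 5.37 and 5.09 in control 1 and control 5, and 1.48 to 1.95 in control 2 to 4. Of the 35 tested subunits 0 passed over all 10 libraries, and 34 had a negative difference there, against 49.4% of all tested genes. Without control 1 and control 5, Ndufa11 (0.48, adjusted p = 0.0466) and Ndufc1 (1.08, adjusted p = 0.0474), both accessory subunits, were higher in metformin, which is 5.71% of the tested subunits, against 5.81% of all tested genes. The difference without control 1 and control 5 was positive for 33 of the 35 subunits (94.3%), against 55.35% of all tested genes. Its median was 0.40, against 0.07 over all tested genes. A positive difference with an unadjusted limma p under 0.05 was found for 28.6% of the subunits, against 12.6% of all tested genes. In the same comparison fast skeletal muscle markers were higher for 18 of 18 genes (100%) and heart muscle markers for 5 of 13 (38.5%). The share of all tested genes was again 5.81%. The 5 from the heart list were Tcap, Ckmt2, Des, Cox6a2 and Cox7a1, and no other gene of that list passed. These counts do not tell heart from skeletal muscle, and the part of the muscle markers was not tested.

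Cytosolic ribosomal proteins, which make up the ribosome outside mitochondria, were set beside the family too. Their median was 4.49 to 5.21 in the metformin libraries, 5.96 and 5.94 in control 1 and control 5, and 5.43 to 5.87 in control 2 to 4, so that all metformin libraries were below all controls. Of 79 tested genes, 18 (22.8%) were lower in metformin and 0 higher, against 3.11% and 4.21% of all tested genes. Without control 1 and control 5, 23 (29.1%) were lower, against 9.06% of all tested genes. In that comparison 1 (1.27%) was higher, Rpl3l, a form found in muscle, against 5.81% of all tested genes. Without control 1 and control 5, 8 of 10 tested B cell markers (80%) were lower in metformin, against 9.06% of all tested genes. T and NK cell markers were lower for 4 of 7 (57.1%). Over all 10 libraries 0 markers of either list passed, unlike the cytosolic ribosomal proteins. Control 1 had a mean of 0.30 for B cell markers and 0.14 for T and NK cell markers, the lowest of all libraries. Neutrophil markers without control 1 and control 5 had negative differences for 8 of 8 tested genes, with 0 past the threshold. An unadjusted limma p under 0.05 was found for 4 of them (50%), against 16.1% of all tested genes. The part of these blood cell markers was not tested. For the mitoribosomal proteins 0 of 39 passed in either comparison.

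**Figure D4:**
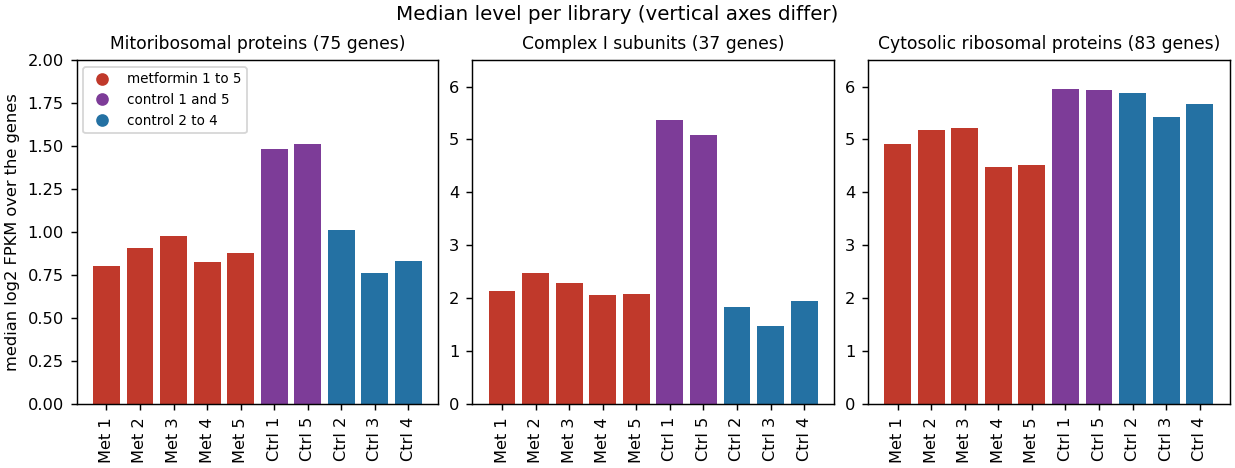
Median log2 FPKM per library (bars, 1 per library) over the 75 mitoribosomal protein genes, 37 nuclear complex I subunits and 83 cytosolic ribosomal protein genes, for metformin 1 to 5, control 1 and 5, and control 2 to 4. Bars start at 0 and the vertical axes differ between panels. In the first 2 panels control 1 and 5 stand out, at 1.48 and 1.51 and at 5.37 and 5.09, whereas in the last all metformin bars, 4.49 to 5.21, lie below all control bars.

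Factors that serve the mitochondrial ribosome were mostly too low to test. Of 12 translation factors 1 passed the filter, of 19 assembly factors 2, of 16 mitochondrial tRNA synthetases 4, of 10 factors of mitochondrial transcription and RNA handling 2, and of 8 nuclear regulators of mitochondrial biogenesis 1. None of these passed the test over all 10 libraries. Without control 1 and control 5, Lars2, the mitochondrial leucyl-tRNA synthetase, was higher in metformin (2.07, SE 0.61, adjusted p = 0.0475). It was the 1 gene called of the 4 tested synthetases, and 5.81% of all tested genes were called higher in that comparison. In control 1 and control 5, 8 of the assembly factors and 6 of the tRNA synthetases were above the other 8 libraries, which is 42.1% and 37.5%, and 1 of the translation factors, which is 8.33%, against 20.0% of all genes.

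The levels in control 1 and control 5 were also set against the promoter cores. The median difference from control 2 to 4 was 0.51 for the 35 members with at least 1 core and 0.62 for the 31 with none. It was 0.60 for members with the ETS core, 0.61 for the 8 with the YY1 core and 0.09 for the 8 with the NRF1 core, among them Mrpl32.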

How the data were processed

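Blood RNA libraries of 5 metformin and 5 control mice were prepared with a Nextera XT kit, which does not mark strand. The authors aligned the reads with TopHat2 and computed FPKM with Cufflinks on GRCm38, according to the processing notes. The paper's methods name TopHat and describe RPKM. The deposited values are log2 FPKM with an offset that is not stated, and their sorted values nearly coincide between libraries (largest SD of a rank 0.0399), as after quantile normalization. They were used as deposited. No counts were used, so depth is unknown and no counting interval is given.

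Of 8904 gene IDs, 8897 matched GENCODE vM21, which gave positions. The annotated genes Mrpl1 and Mrpl23 were not analysed here, nor was Mrpl58, which the table lists under another symbol. The filter on low values required a log2 level of 1 or more in 5 or more libraries, which 3442 genes met. It was set over all 10 libraries and not set anew when libraries were left out. Metformin was tested against control with limma 3.58.1 in R 4.3.3 (lmFit, eBayes with a trend) at a Benjamini-Hochberg adjusted p of 0.05 and no fold limit. The code was tested on simulated data. Each member named had the largest differences or the highest or lowest levels by a written rule, apart from those said to be named after their values were seen. The members, the lists and the rules were chosen with earlier results of these data known. Alternatives were other filters, an offset of 0.1 in place of an assumed 1, median centring, leaving out libraries, a replicate block, eBayes without a trend or robust, and library weights. Whether replicate numbers in the titles pair the mice is not stated, and the main fit took them as unpaired. Deviations of same-numbered libraries from their group means correlated at −0.25 to 0.13. This cannot decide the question, since control 1 and control 5 stand far from the other controls.

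Of the members, 41 overlap another annotated gene and 26 a protein-coding one, among the named ones Mrpl9, Mrpl13, Mrpl14, Mrpl18, Mrpl19, Mrpl24, Mrpl33, Mrpl53, Mrps18a, Mrps24 and Mrps30. Because the library kit does not mark strand, reads of overlapping genes cannot be told apart by strand and may be mixed. Reads shared with pseudogenes cannot be separated either.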

Additional observations from a re-analysis of the deposited data

Results flagged for a closer look

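Among the 24 members named by the rule, 48 groups of 5 libraries were checked for a library far from the rest of its group (a gap to the nearest library, divided by the range, above 0.71), and 4 were found. Chance gives about 1 in 20 groups. Mrpl28 was at 1.60 in metformin 1, whereas the other metformin libraries were at 0.85 to 0.93. Mrpl30 was at 2.02 in metformin 4, against 2.57 to 2.64 in the other metformin libraries. Mrpl15 was at 0.62 in control 2, while its other control values were 1.14 to 1.31. Mrpl9 was at 1.41 in control 4, with its other control values at 0.96 to 1.04, and this gene overlaps Oaz3 on the opposite strand. Control 1 and control 5 are not found by this check, since 2 libraries that stand apart together leave no gap to the nearest.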

How the results depend on the processing

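The count of members past the threshold was 0 higher and 0 lower under each alternative other than leaving out 1 library, where it was 0 to 1 higher and 0 to 2 lower. With a replicate block it was also 0 and 0, with a median difference of −0.28 over the tested members, and it changed no call. That median, −0.28, turned to 0.13 without control 1 and control 5 (the cause was not tested), lay between −0.37 and −0.19 when 1 library was left out, and was −0.43 with the other offset, −0.37 with median centring and −0.08 with library weights. Without control 1 and control 5 the sign also turned for Mrpl30 (0.56), Mrpl42 (0.31), Mrpl51 (0.41) and Mrps21 (0.22). With library weights it turned for Mrpl30 (0.34) and Mrpl51 (0.079), and with median centring for Mrpl15 (−0.026) and Mrps14 (−0.014). Leaving out 1 library gave −0.059 to 0.16 for Mrpl15, −0.025 to 0.32 for Mrpl18 and −0.23 to 0.19 for Mrpl30. Of 272 values of the 15 named members that were tested, 253 kept direction and side of the threshold, 4 passed it and 15 changed sign. No test could be made for the 36 members under the filter, other than without it, and the stricter filter left 4 members. Depth is unknown, and low members lie where the scale shows little.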
